A study of Homo sapiens with 3 samples.

Results

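The NF-kB subunit and feedback genes are 10 genes, NFKB1, NFKB2, RELB, REL, NFKBIA, NFKBIE, BCL3, TNFAIP3, BIRC3 and MAP3K8, of 19748 protein-coding genes on the chromosomes that carry peaks. They were taken by name, with earlier results of these data known. From the deposited lists, every RBPJ or L3MBTL3 peak near any of these genes was read. Near means a summit within 50 kb of a transcription start site (TSS) of the gene. That gave 10 of 2926 RBPJ peaks and 3 of 444 L3MBTL3 peaks. The lists come from chromatin immunoprecipitation followed by sequencing (ChIP-seq) in MDA-MB-231, a mesenchymal-like human breast cancer cell line without hormone receptors. The first library was made with an antibody against RBPJ (also called CBF1), the DNA-binding factor of the Notch pathway. The second was made with an antibody against L3MBTL3, a reader of methylated lysines. The series also names an input DNA library, which was not analysed here. No treatment, genotype or time point separates the libraries, and each antibody has 1 library, so no value below has a replicate error and no test between conditions was possible. The lists hold no expression values, so neither the cell line label nor the activity of these genes could be checked against markers.

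NF-kB is a family of dimeric transcription factors that recognise decameric kB sites, which begin with a run of G and end with a run of C. In resting cells inhibitor proteins hold the dimers in the cytoplasm. After a stimulus the inhibitors are degraded, the dimers enter the nucleus, and they induce several of their own subunits, inhibitors and other brakes, which makes these genes a feedback circuit. MDA-MB-231 cells are known for constitutive NF-kB activity. RBPJ recognises the core word TGGGAA, and its high-affinity sites read CGTGGGAA or TGTGGGAA. The letters GGGAA of the core also open many kB sites, so 1 stretch of DNA can carry both words, and the NFKB2 promoter has been described as such a case.

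The following stretches of 30 bases show where the RBPJ core and a kB word share bases. Capitals mark the RBPJ core and the kB words, and each stretch is written on the strand of the core (GRCh37, the same assembly as hg19). The NFKB2 and MAP3K8 stretches lay within 100 bp of an RBPJ summit, those of NFKB1 and NFKBIA lay at promoters with no RBPJ peak, and that of HES1, a Notch-induced repressor gene, belonged to the strongest RBPJ peak of the list with such a pair.
NFKB2 (chr10:104154217-104154246, plus strand): ggaaacgtcaTGGGAATTCCCCcctccggg
MAP3K8 upstream (chr10:30722912-30722941, minus strand): gcccccgcgcTGGGAAATTCCgcgtctccc
MAP3K8 downstream (chr10:30723359-30723388, minus strand): catttctgcaTGGGAATCCCCggggcaccc
NFKB1 (chr4:103422456-103422485, plus strand): tcgacgtcagTGGGAATTTCCagccaggaa
NFKBIA (chr14:35874274-35874303, minus strand): aaatcgatcgTGGGAAACCCCagggaaaga
HES1 (chr3:193852692-193852721, minus strand): tgctcgagccTGGGAAAACCCCgccccctg
The kB word searched, on both strands, is the usual decameric NF-kB consensus, and 2 words were taken to coincide where they shared at least 1 base.

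Of the 10 genes, 5 had an RBPJ summit no more than 50 kb from a TSS, namely NFKB2, NFKBIE, BCL3, BIRC3 and MAP3K8, against 21.8% of all protein-coding genes. An L3MBTL3 summit lay that close to 1 gene, MAP3K8, against 2.89% of all protein-coding genes. MAP3K8 was also the 1 gene with both proteins, against 1.76% of all. The 5 genes without a peak of either protein were NFKB1, RELB, REL, NFKBIA and TNFAIP3. Within 1 kb of a TSS, RBPJ was found at 4 of the 10 genes (NFKB2, NFKBIE, BIRC3 and MAP3K8), against 8.91% of all genes, L3MBTL3 at 1, against 1.37%, and both at 1, against 0.704%. With 10 genes these shares cannot be given a sampling error that would describe repeated experiments. The genes were also chosen with earlier results of these data known, so the shares are not independent of that choice. Of the 10 RBPJ peaks, 8 had the gene itself as their nearest protein-coding gene, and 4 of the 5 genes had 2 or more peaks. Among all genes with an RBPJ summit within 50 kb, 35.9% had at least 2. The peak farthest inside the limit lay 36.7 kb from an NFKBIE TSS, with a fold enrichment of 3.995. The nearest beyond the limit lay 54.8 kb from an NFKB2 TSS, with a fold of 4.33.

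**Figure D1:**
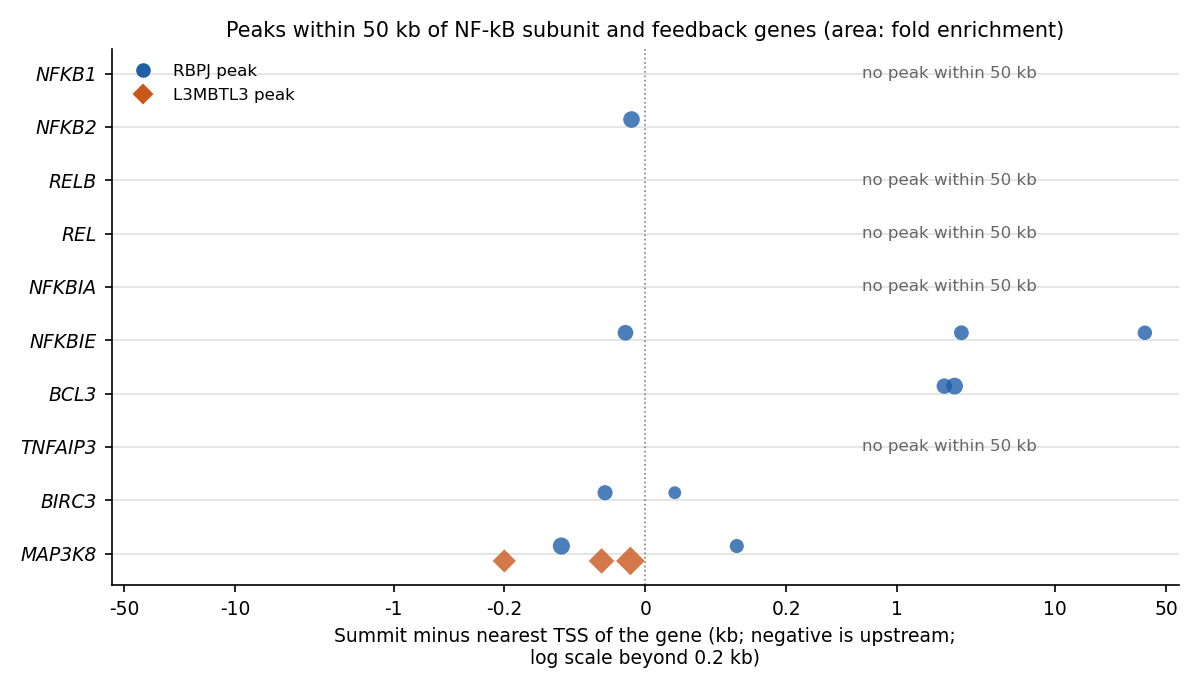
Peaks near the 10 genes. The x axis gives the distance of each summit from the nearest TSS of the gene in kb, linear within 0.2 kb and logarithmic beyond, circles are RBPJ and diamonds are L3MBTL3 peaks, and symbol area follows the deposited fold enrichment. Peaks of MAP3K8 are each placed from their own nearest TSS. 5 genes have RBPJ peaks, and MAP3K8 is the 1 gene with L3MBTL3 peaks.

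Most of the member peaks lay in the weaker part of the RBPJ list by fold enrichment. Fold enrichment here is the deposited enrichment at the summit over the peak caller's local background, and q is the caller's corrected p-value. The 10 member peaks had a median fold of 4.49 (3.16 to 5.63), against 5.08 in the other 2916 RBPJ peaks (2.09 to 21.3), and 3 of them reached the median of the list. None had a -log10 q of at least 5, which 21.9% of all RBPJ peaks did, and their highest was 4.41. Their median width was 134.5 bp (67 to 221), against 93.5 bp in the rest. The 3 L3MBTL3 peaks had folds of 5.17, 7.88 and 6.28, against a median of 5.57 in the rest of that list, and 1 of them had a -log10 q of at least 5, against 23.2% of all L3MBTL3 peaks. The number of reads behind a peak is unknown, and with it the counting error of its fold. The labels give 30 to 40 M aligned reads for each library.

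**Figure D2:**
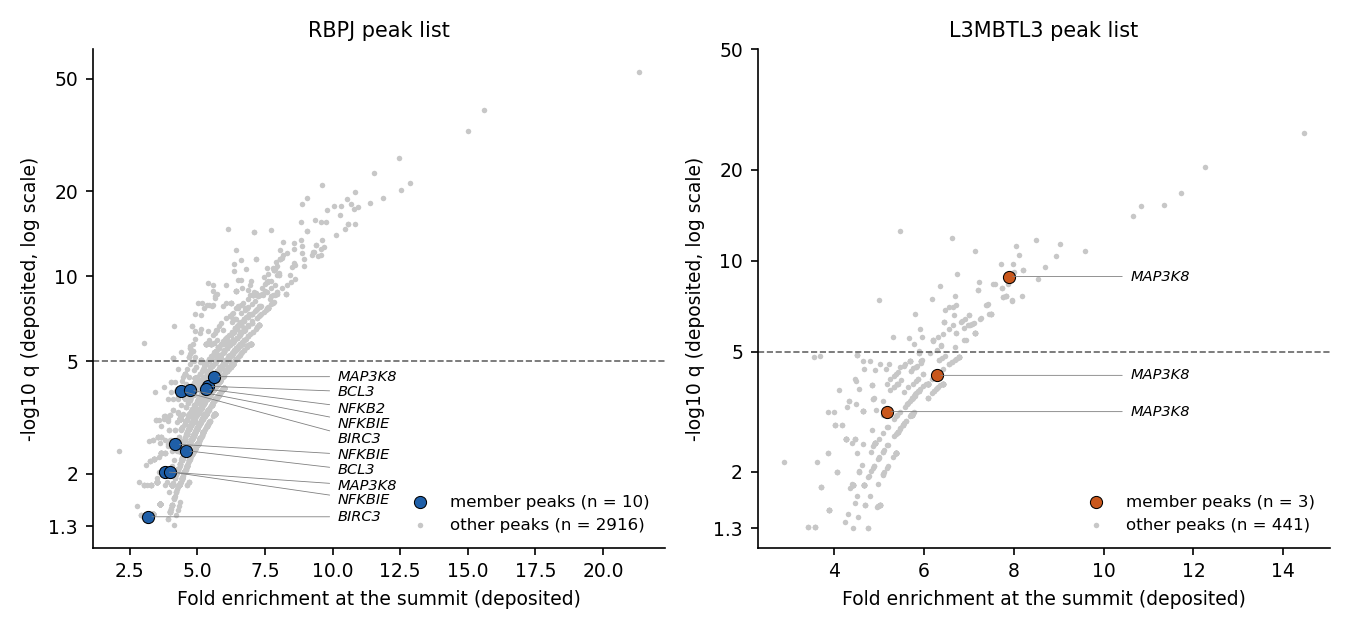
Strength of the member peaks within each list. Each point is a peak, with its deposited fold enrichment on the x axis and its deposited -log10 q on a logarithmic y axis, and the dashed line marks a -log10 q of 5. All 10 member RBPJ peaks lie below the line, and 1 of the 3 MAP3K8 peaks of L3MBTL3 lies above it.

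Of the genes for NF-kB subunits, NFKB2 had an RBPJ peak at its promoter. NFKB2 encodes the precursor of a DNA-binding subunit of the non-canonical pathway, and the precursor itself holds NF-kB dimers in the cytoplasm. The peak (chr10:104154093-104154313, hg19) was 221 bp wide, the widest of the 10, with a fold of 5.31 (rank 1218 of 2926) and a -log10 q of 3.98. Its summit lay 20 bp upstream of a TSS at 104154260, in the UTR of a transcript that starts farther upstream, and not at the canonical TSS at 104155462. The printed NFKB2 stretch lay inside the peak, and the centre of its RBPJ core was 10.5 bp from the summit, the shortest such distance among the members. The core shared bases with kB words on both strands, GGGAATTCCC and GGGGAATTCC, and another kB word, GGGGCTTTCC, lay 21.5 bp on the other side of the summit. The nearest other protein-coding gene, GBF1, was 12.4 kb away. No L3MBTL3 summit was closer than 163.5 kb to an NFKB2 TSS.

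NFKB1, RELB and REL, the other subunit genes of the set, had no peak. NFKB1 encodes the precursor of the subunit of the most common NF-kB dimer, and its nearest RBPJ summit was 323.9 kb away. REL encodes c-Rel, an activating subunit known from lymphoid cells, and had its nearest RBPJ summit at 295.5 kb. RELB encodes the partner of the processed NFKB2 product, and had its nearest RBPJ summit at 155.3 kb. The absence from a list is a call of the peak caller at this depth and does not show that a protein was absent.

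MAP3K8 was where both proteins were called. It encodes the kinase TPL2, which the NFKB1 precursor holds inactive and which signals to the ERK pathway once that precursor is degraded. Over 874 bp of chromosome 10 (30722685 to 30723558) lay 2 RBPJ and 3 L3MBTL3 peaks, and the TSS nearest to their summits were 30722950, 30723173 and 30723594. The upstream RBPJ peak (chr10:30722685-30722880, 119 bp upstream of a TSS) had the highest RBPJ fold of the set, 5.63 (rank 857 of 2926), with a -log10 q of 4.41. It contained a whole L3MBTL3 peak of 122 bp (chr10:30722737-30722858, fold 5.17, -log10 q 3.16), with summits 81 bp apart. This was the 1 overlapping pair among the 10 member RBPJ peaks, against 4.37% of all RBPJ peaks. Among the L3MBTL3 peaks, 1 of these 3 overlapped an RBPJ peak, against 28.6% of that list. The downstream RBPJ peak (chr10:30723298-30723436, UTR in exon 1) was weaker, with a fold of 3.81 (rank 2702) and a -log10 q of 2.03.

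The strongest L3MBTL3 peak at MAP3K8 lay between the RBPJ peaks and touched neither. It spanned chr10:30723123-30723221, with its summit 21 bp upstream of a TSS, a fold of 7.88 (rank 22 of 444) and a -log10 q of 8.85. From the canonical TSS at 30723113 this summit was 39 bp downstream, in the UTR of exon 1. Its edges were 242 bp from the upstream and 76 bp from the downstream RBPJ peak. The last L3MBTL3 peak (chr10:30723507-30723558, in an intron) had a fold of 6.28 (rank 121) and a -log10 q of 4.17, with a gap of 70 bp to the downstream RBPJ peak. Along the promoter the peaks of the 2 proteins thus alternated after the overlapping pair, and the highest L3MBTL3 fold and the highest RBPJ fold were at summits 321 bp apart. At least 2 RBPJ and 3 L3MBTL3 summits within 1 kb of a TSS were found at 11 of 19748 protein-coding genes (0.0557%): MAP3K8, RIPK1, BICDL1, DGKH, DST, FKBP5, MXI1, NOL4L, SAMD1, TMEM170B and ZFP64. These minimum counts are those of MAP3K8 itself, so it meets them by definition, and the share is no measure of how unusual it is.

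At MAP3K8 none of the 3 L3MBTL3 windows (100 bp either side of the summit) held the RBPJ core or a kB word, which 19.8% and 8.78% of all L3MBTL3 peaks did. The coinciding words of the upstream RBPJ peak were 97.5 bp from its summit and ended 51 bp outside the peak as called. Those of the downstream peak lay inside it, 72.5 bp from the summit, and the peak also held a second kB word and, 121.5 bp from the summit, the high-affinity word CGTGGGAA at 30723421 to 30723428. That word lay outside the called L3MBTL3 peaks but 107.5 bp from the summit of the last one, so it was just beyond the window of either protein. The intergenic stretch from the start of the overlap to the base before the first TSS is shown because both proteins were called at its start, 122 bases with neither word, and the coinciding words, in capitals, sit at its end.
MAP3K8 promoter (chr10:30722737-30722949, plus strand): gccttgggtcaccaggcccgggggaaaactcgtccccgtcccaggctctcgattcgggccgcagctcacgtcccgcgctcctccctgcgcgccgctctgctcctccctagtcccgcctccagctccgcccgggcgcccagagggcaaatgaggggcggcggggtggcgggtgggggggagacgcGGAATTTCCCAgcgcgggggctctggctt

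Of the inhibitor genes, NFKBIE had RBPJ peaks and NFKBIA had none. NFKBIE encodes IkB-epsilon and NFKBIA encodes IkB-alpha, the inhibitor that is degraded and resynthesised fastest after a stimulus. The NFKBIE promoter peak (chr6:44233300-44233472) had its summit 28 bp upstream of the canonical TSS, where a longer transcript has a coding exon, with a fold of 4.72 (rank 1945) and a -log10 q of 3.96. Its window held neither the RBPJ core nor a kB word, but a kB word, GGGGGATTCC on the minus strand (chr6:44233423-44233432), lay inside the peak beyond the window, 139.5 bp upstream of the TSS. The other NFKBIE peaks were promoter peaks of neighbouring genes. The first (chr6:44225326-44225414, fold 4.18) lay 19 bp from a TSS of SLC35B2, a sulfate donor transporter gene, and its window held a kB word, GGGGAGCCCC, 93.5 bp from the summit and outside the peak. The second (chr6:44191088-44191189, fold 3.995) lay 115 bp from a TSS of SLC29A1, a nucleoside transporter gene, with neither word.

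NFKBIA had its nearest RBPJ summit 421.3 kb away and its nearest L3MBTL3 summit 15.4 Mb away on chromosome 14. Yet the printed NFKBIA stretch, centred 335.5 bp upstream of its TSS, holds the high-affinity RBPJ word CGTGGGAA joined to a kB word. The printed NFKB1 stretch lies 47.5 bp upstream of the canonical TSS. These were the members with coinciding words at the promoter and no RBPJ peak.

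BCL3, BIRC3 and TNFAIP3 act downstream of or beside the subunits. BCL3 encodes a nuclear IkB family protein that binds DNA-bound subunit dimers. It had RBPJ peaks in an intron 1.99 kb and 2.31 kb downstream of its nearest TSS, at chr19:45256537-45256603 (fold 4.58, -log10 q 2.41) and chr19:45256868-45256938 (fold 5.38, rank 1081, -log10 q 4.08), and neither window held the RBPJ core or a kB word. TNFAIP3 encodes A20, a ubiquitin-editing brake on NF-kB signalling, and had its nearest RBPJ summit 6.35 Mb away.

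BIRC3 encodes cIAP2, a ubiquitin ligase that limits the non-canonical pathway. Its stronger RBPJ peak (chr11:102188070-102188249, fold 4.39, rank 2280, -log10 q 3.92) spanned a TSS, with its summit 57 bp upstream. The weaker one (chr11:102188309-102188438, fold 3.16, rank 2900, -log10 q 1.41) had its summit 42 bp downstream of another TSS, in an intron, and was the weakest of the 10. The 2 windows overlap, so they are not separate observations. The stronger peak held 1 kB word, GGGGAACTCC on the minus strand, 73.5 bp from the summit, and no RBPJ core. The sequence upstream of the TSS is shown because it is a member promoter with an RBPJ peak and kB words, in capitals, that carry no RBPJ core. The second of these words lies inside the peak and the first upstream of it.
BIRC3 promoter (chr11:102188010-102188214, plus strand): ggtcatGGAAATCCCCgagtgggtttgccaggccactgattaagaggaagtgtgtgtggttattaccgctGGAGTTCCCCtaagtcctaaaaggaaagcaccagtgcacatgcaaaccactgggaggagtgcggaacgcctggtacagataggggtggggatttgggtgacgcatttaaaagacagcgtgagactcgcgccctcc

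**Figure D3:**
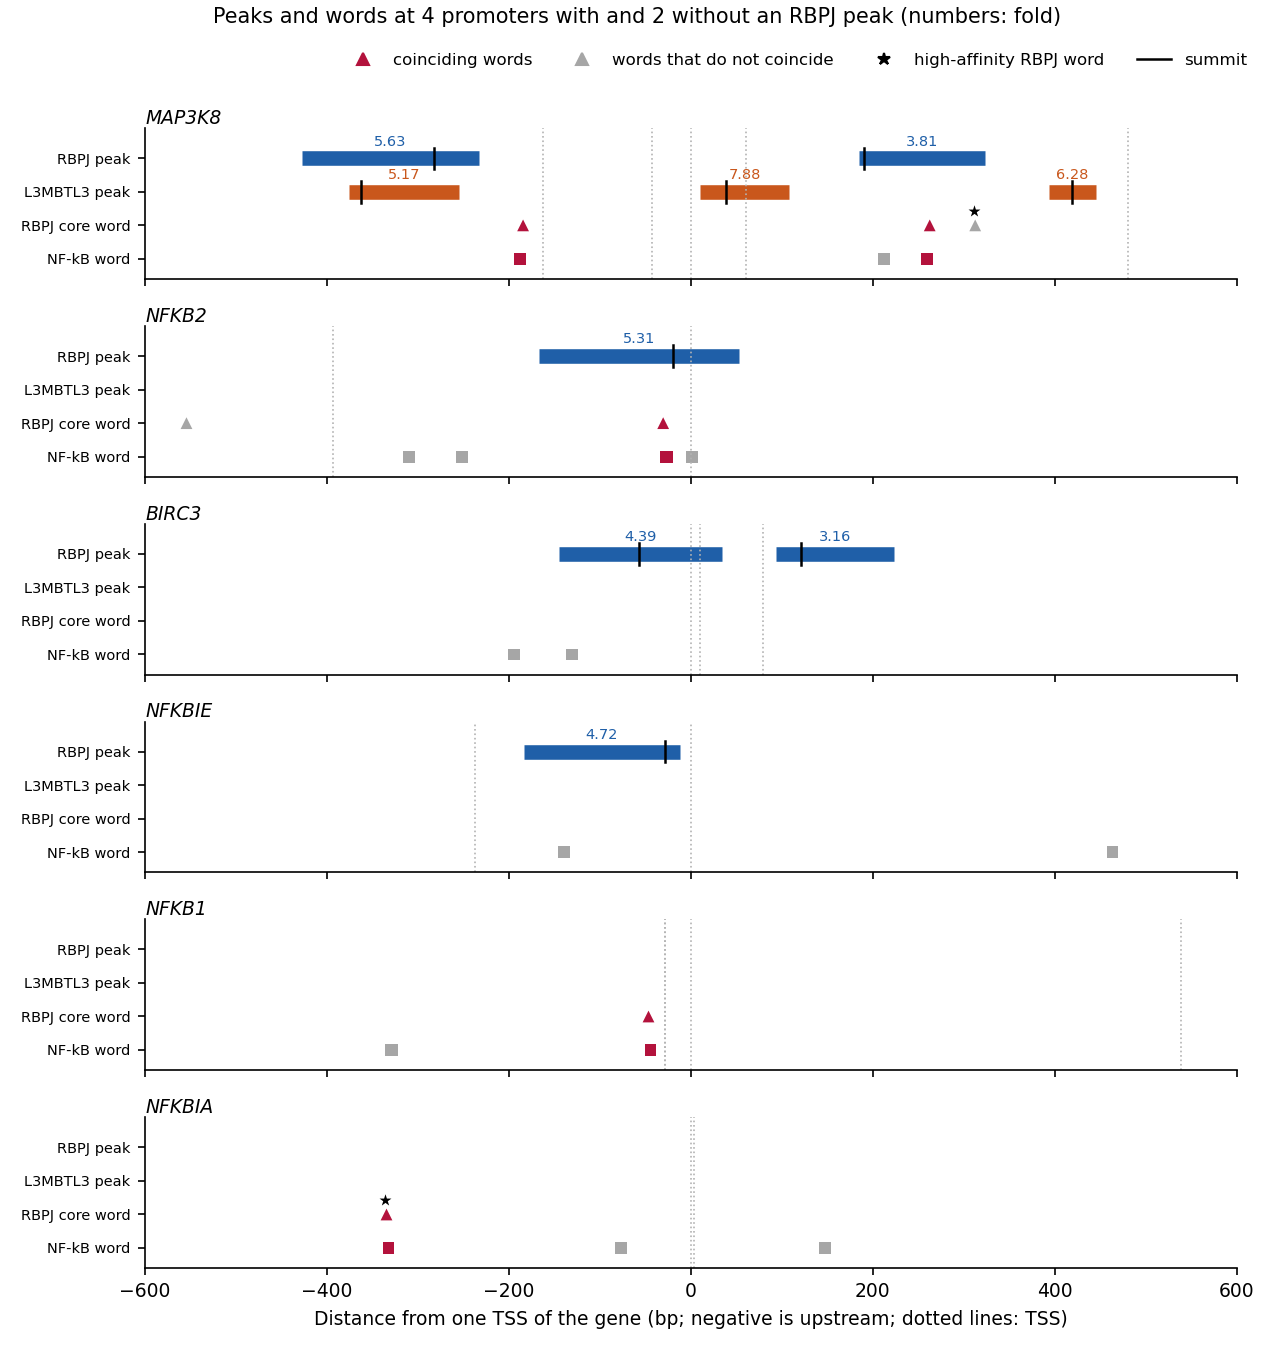
Peaks and words at 6 member promoters. The x axis is the distance in bp from 1 TSS of each gene, bars are peaks with their fold above and the summit as a black line, triangles are RBPJ core words, squares are kB words, red symbols are words that coincide, stars are high-affinity RBPJ words, and dotted lines are TSS. MAP3K8 and NFKB2 have coinciding words at RBPJ peaks, NFKB1 and NFKBIA have them without a peak, and BIRC3 and NFKBIE have peaks without them.

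Over the 10 member RBPJ peaks, the share with the RBPJ core was near that of the whole list, while the share with a kB word lay above it. In 3 of 10 member windows (30.0%, 95% Wilson interval 10.8 to 60.3) the core was present, against 29.5% of all RBPJ peaks and 16.8% of windows 2 kb to either side. A kB word was present in 5 of 10 (50.0%, 23.7 to 76.3), against 9.95% of all RBPJ peaks and 4.75% of flanking windows. The high-affinity word lay there in 0 of 10 (interval up to 27.8%), against 8.51% of all RBPJ peaks and 1.56% of flanking windows. Core and kB word coincided in 3 of 10 (30.0%, 10.8 to 60.3), from NFKB2 and MAP3K8, against 0.684% of all RBPJ peaks and 0.29% of flanking windows. All 3 member windows with both words had them coinciding, while 89 other RBPJ windows had both words and 17 of those had them coinciding. Of all RBPJ peaks with a kB word, 6.87% had a coinciding core, against 3 of the 5 member peaks with one. Inside the peaks as called, a kB word lay in 4 of the 10 (NFKB2, NFKBIE, BIRC3 and the downstream MAP3K8 peak) and coinciding words in 2. The downstream MAP3K8 peak also held the high-affinity word, 121.5 bp from its summit and so outside the window. Words inside the called peaks were not counted for the whole list, so these counts have no share beside them. Member peaks were also wider than the rest (median 134.5 bp against 93.5 bp). The flanking windows were not matched to the summit windows in base composition. The median share of G and C bases was 70.65% in member windows and 68.66% in the other RBPJ windows. The intervals cover counting error only and treat the 10 peaks as independent draws. The peaks come from 5 genes, and 2 of the 3 windows with coinciding words are from MAP3K8. The set was drawn from known NF-kB targets, so its kB words are not independent of that choice. A kB word lay within 500 bp of the canonical TSS in all 10 genes, against 38.4% of all protein-coding promoters, whether or not RBPJ was called there. The RBPJ core lay there in 6 of the 10, against 56.6%, and the high-affinity word in 2 (NFKBIA and MAP3K8), against 7.48%.

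**Figure D4:**
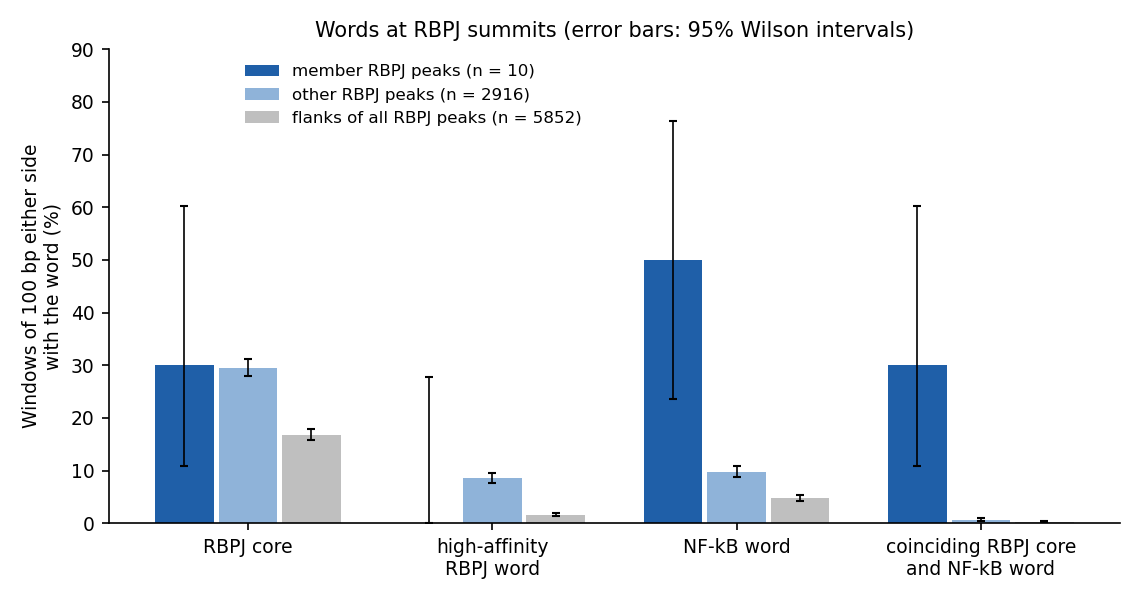
Words at RBPJ summits. Bars give the percent of windows of 100 bp either side of the summit that hold each word, for the 10 member peaks, the other 2916 RBPJ peaks and 5852 windows centred 2 kb to either side of all RBPJ summits, and error bars are 95% Wilson intervals. The member peaks stand above the others for kB words (50.0% against 9.81%) and for coinciding words (30.0% against 0.583%), and not for the RBPJ core (30.0% against 29.5%).

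Across all genes, promoters with coinciding words had an RBPJ summit about as often as those without. Coinciding words lay within 500 bp of the canonical TSS in 3 of the 10 genes (MAP3K8, NFKB1 and NFKBIA), against 2.03% of 19471 protein-coding promoters. With every annotated TSS of a gene in place of the canonical one, NFKB2 joined them and the count was 4, against 4.05% of all protein-coding genes under the same rule. Of the 396 promoters with coinciding words, 7.58% had an RBPJ summit within 500 bp of the TSS, and of the 19075 promoters without them 7.45% did. Among all RBPJ peaks 20 had coinciding words, 17 of them outside the member windows. The strongest of those were the peaks nearest to HES1 (fold 8.82, core 5.5 bp from the summit), PTER (fold 7.19), MB (6.64), MYOF (6.45) and PSCA (6.12).

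The member genes lie in regions of very different peak density. Within 10 Mb of NFKBIE there were 112 RBPJ peaks, and within 10 Mb of TNFAIP3, on the same chromosome 6, there was 1. The counts were 85 around BCL3, 84 around RELB, 26 around MAP3K8, 23 around NFKB2, 23 around REL, 17 around BIRC3, 9 around NFKB1 and 9 around NFKBIA. The 5 genes with an RBPJ peak thus had 112, 85, 26, 23 and 17 RBPJ peaks within 10 Mb, and those without had 84, 23, 9, 9 and 1. The part of local peak density in the pattern across members was not tested. CpG content also varied: the observed over expected CpG ratio within 500 bp of the canonical TSS was 0.511 to 0.906. The lowest was that of NFKB2, whose RBPJ peak lay at another TSS. The ratio was not computed for other protein-coding promoters, so how usual these values are is not known here.

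The rest of the pathway is given by counts from 3 further gene lists, with no test. Of 34 genes of upstream signalling, 13 had an RBPJ and 3 an L3MBTL3 summit within 50 kb, and 5 and 3 within 10 kb. The shares of all genes within 50 kb were the 21.8% and 2.89% given above, also for the lists that follow. Within 10 kb, 5 and 1 of the 10 member genes had them, against 11.3% and 1.58% of all genes. These 10 kb shares of all genes also apply to the 3 lists. RIPK1, the kinase recruited to TNF receptors, had 4 RBPJ peaks within 10 kb (highest fold 6.36, 97 bp from a TSS, overlapping an L3MBTL3 peak, with a high-affinity word) and 3 L3MBTL3 peaks. LTBR, a receptor that drives the non-canonical pathway, had an RBPJ peak with a high-affinity word 377 bp upstream of a TSS (fold 5.66). TRAF2, an adaptor of TNF receptors, had an L3MBTL3 peak 38 bp from a TSS with a high-affinity word (fold 7.40, rank 40 of 444) and no RBPJ summit within 10 kb. RNF31, the catalytic subunit of the linear ubiquitin ligase, had an RBPJ peak 36 bp from a TSS (fold 5.06). The RBPJ peaks of MYD88 and SHARPIN lay nearer to TSS of ACAA1 (66 bp) and CYC1 (237 bp).

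Of 16 further subunit and feedback genes, 5 had an RBPJ summit within 50 kb and 3 within 10 kb, and 0 had an L3MBTL3 summit within 50 kb. The 3 were NFKBIB, which encodes IkB-beta (fold 5.83, 34 bp from a TSS and 21 bp from one of SIRT2), RELA, which encodes the main activating subunit (fold 5.56, 6.96 kb from a TSS), and NFKBIZ, which encodes a nuclear IkB protein (fold 4.83, 102 bp upstream). The windows of these peaks held neither the RBPJ core nor a kB word. Of 30 inflammatory target genes, 11 had an RBPJ and 2 an L3MBTL3 summit within 50 kb. Within 10 kb, 6 and 2 had them, against 11.3% and 1.58% of all genes. The highest RBPJ folds were at IER3 (8.19, nearer to a TSS of FLOT1 and overlapping an L3MBTL3 peak), the transcription factor gene IRF1 (6.88, 9 bp from a TSS, with a kB word), SOD2 (6.64, nearer to WTAP), CD83 (5.42, with a kB word and overlapping an L3MBTL3 peak) and CFLAR (5.27, with 2 high-affinity words).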

How the data were processed

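Peaks of 1 RBPJ and 1 L3MBTL3 library were analysed. Per the labels' protocols, single-end reads of 50 cycles were trimmed (Trimmomatic) and mapped to hg19 by BWA 0.7.15. MACS2 called the peaks, per the submitters' processing notes. For MACS2, the version, cutoff and control were not given in the sources used here. The deposited columns were the fold enrichment (a ratio), -log10 p, -log10 q and a score, which equalled 10 times the -log10 q, truncated, for every peak. Depth is known only as 30 to 40 M aligned reads.

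TSS came from protein-coding transcripts of GENCODE 44 on GRCh37 (19748 genes, chromosomes 1 to 22 and X). Coordinates are 1-based. Overlap needed 1 bp. Words were sought on both strands with Python 3.11.15 and pysam 0.24.0, and the search and the assignment of summits were checked on simulated data. The genes and lists were chosen with earlier results of these data known; named genes of other lists are the 5 with the highest fold within 10 kb. The promoter scan of 500 bp was added after seeing the data. Alternatives were distances, peak thresholds, TSS sets, overlap rules, word windows and words.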

Additional observations from a re-analysis of the deposited data

How the results depend on the processing

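The 5 genes with an RBPJ peak remained the same at 10 and 100 kb, with TSS of all transcripts, with the 5′ end of the gene record, with the nearest protein-coding gene only and with distance from the peak edge, and 4 remained at 1 kb. With a -log10 q of at least 5 there were 0 such genes, 0 RBPJ peaks, 0 genes with both proteins and 0 member windows with any of the words, and 1 of the 3 L3MBTL3 peaks was left. With folds of at least the list median 3 genes and 3 RBPJ peaks were left. At 1 kb 6 of the 10 RBPJ peaks were left. Summits within 1 kb in place of overlap gave 2 RBPJ peaks with L3MBTL3, both at MAP3K8. The share of all RBPJ peaks under that rule was not counted. Within 50 bp of the summit the RBPJ core was in 1 peak, a kB word in 2 and coinciding words in 1 (NFKB2). Within 200 bp a kB word was in 8 peaks. The shares of all RBPJ peaks were not counted for windows of 50 or 200 bp. These counts therefore cannot be set against the shares for 100 bp. Within 100 bp a looser kB word (GGG and CC around any 5 bases) was in all 10 member peaks, but also in 64.2% of all RBPJ peaks. The high-affinity RBPJ word in place of the core, within 100 bp of the summit, gave 0 peaks, also for coinciding words. At 10 kb the upstream, further feedback and target lists had 5, 3 and 6 genes with RBPJ peaks in place of 13, 5 and 11, an alternative added after seeing the data. No paired analysis was possible because each antibody has 1 library. One library per antibody and unknown read counts per peak limit every value.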

Other observations

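CD83, a target gene that encodes a surface protein of activated antigen-presenting cells, had an RBPJ and an L3MBTL3 peak that overlapped at its promoter. Its L3MBTL3 window held 6 matches of the kB word (L3MBTL3 fold 4.61, rank 374 of 444). Overlapping matches were counted separately, so these need not be 6 separate sites. Coinciding RBPJ core and kB words were found in 2 of 444 L3MBTL3 windows (0.45%), nearest to CD34 (fold 8.13, rank 16) and FERMT2 (fold 4.02, rank 421), and both of these L3MBTL3 peaks overlapped an RBPJ peak.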
